A study of Homo sapiens with 30 samples.

Results

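The genes described here are 38 genes of cell division (mitosis), chosen by gene symbol: cyclins, mitotic kinases, the anaphase machinery, kinetochore and spindle proteins, cytokinesis proteins and 2 chromosome proteins. The choice was made with earlier results of these data known, which limits what shares of all genes can say beside them. Each of the 38 has its own entry among the 60675 gene entries of the count table, and each passed the filter on low counts in every fit. They were measured by RNA sequencing in SW1783, an established human astrocytoma line from ATCC, after 24 h with an ethanol extract of a herbal decoction. The concentrations were 500, 100 and 20 µg/mL. Per concentration there were 3 libraries for Soshiho-tang, 3 for Yijin-tang, 2 for Okbyeongpung-san (1 in batch E and 1 in batch D by the titles) and 1 for Soyo-san (batch D). The other 3 libraries, in batch E like those of Soshiho-tang and Yijin-tang, came from cells with the DMSO vehicle, at 0.1% by the sample labels and 2% by the series description, a difference that could not be settled. All groups share the cell line, L-15 medium with serum and the exposure time. Water extracts and a wortmannin control are not analysed here.

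Mitosis genes are transcribed in a wave late in the cell cycle, so their RNA in a culture follows how many cells are in G2 and mitosis as well as how strongly each cell transcribes them. Cyclins A and B with CDK1 drive entry into mitosis, the Aurora, Polo and checkpoint kinases build and guard the spindle, and the anaphase-promoting complex with its activator CDC20 ends mitosis by destroying cyclin B and securin. Many of their promoters hold a CCAAT box, bound by NF-Y, and a short element called the cell cycle genes homology region (CHR), through which the MuvB complex represses them in resting cells and, with B-MYB and FOXM1, activates them before division.

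The promoters of 8 of the genes are shown to set 6 that hold the CHR letters given below beside KIF20A and CCNA2. In KIF20A and CCNA2 only the CCAAT box matched. Other forms of the CHR were not searched for, so either promoter may hold one. The choice of the 38 genes used no sequence. The sequences are from RefSeq (GRCh38.p14) and end at the base before the annotated start site. Capitals mark matches to the CHR letters (TTTGAA, its reverse complement TTCAAA, or TTCGAA) and to the CCAAT box (CCAAT or its reverse complement ATTGG). Where matches to the same motif overlap, only the first is marked. In HMMR the stretch CCAATtgg thus also holds an unmarked ATTGG. PLK1 lies at chr16:23678779-23678888 on the plus strand, CCNB2 at chr15:59105036-59105145 on the plus strand and PRC1 at chr15:90994536-90994645 on the minus strand. MKI67 lies at chr10:128126424-128126533 on the minus strand, CDC20 at chr1:43358871-43358980 on the plus strand and HMMR at chr5:163460522-163460631 on the plus strand. KIF20A lies at chr5:138179002-138179111 on the plus strand and CCNA2 at chr4:121823884-121823993 on the minus strand.
PLK1: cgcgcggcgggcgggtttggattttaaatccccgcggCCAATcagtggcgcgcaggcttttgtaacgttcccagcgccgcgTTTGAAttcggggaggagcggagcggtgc
CCNB2: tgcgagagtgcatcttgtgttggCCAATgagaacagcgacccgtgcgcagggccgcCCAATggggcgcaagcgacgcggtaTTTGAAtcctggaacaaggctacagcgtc
PRC1: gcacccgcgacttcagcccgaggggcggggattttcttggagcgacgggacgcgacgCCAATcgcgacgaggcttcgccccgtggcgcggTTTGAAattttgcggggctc
MKI67: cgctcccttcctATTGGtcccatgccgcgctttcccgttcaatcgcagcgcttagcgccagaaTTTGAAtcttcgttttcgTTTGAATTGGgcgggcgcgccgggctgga
CDC20: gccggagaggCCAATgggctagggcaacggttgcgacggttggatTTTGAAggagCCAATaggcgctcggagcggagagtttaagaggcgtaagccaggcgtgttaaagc
HMMR: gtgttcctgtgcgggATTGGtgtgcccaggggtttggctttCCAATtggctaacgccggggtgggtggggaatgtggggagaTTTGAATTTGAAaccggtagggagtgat
KIF20A: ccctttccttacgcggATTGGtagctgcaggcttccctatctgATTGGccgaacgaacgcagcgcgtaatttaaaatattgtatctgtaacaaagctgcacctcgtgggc
CCNA2: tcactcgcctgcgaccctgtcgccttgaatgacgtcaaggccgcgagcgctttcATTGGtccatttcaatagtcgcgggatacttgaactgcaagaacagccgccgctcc

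In PLK1 and CCNB2 the CHR letters start at position -29 from the start site and lie downstream of a CCAAT box. MKI67 has them at -47 and -29, and the copy at -29 shares letters with a CCAAT box on the other strand. HMMR has 2 copies end to end, from -28. The windows of KIF20A and CCNA2 hold CCAAT boxes and none of the 3 CHR words on either strand. Other forms of the element were not searched for.

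The table gave windows, from 250 bases before to 50 bases after the start site, for 32 of the 38 genes, 36 windows in all. CHR letters on either strand were in 27 of the 36 windows (75.0%), against 16.4% of all 35116 windows of this length. A CCAAT box was in 29 of the 36 (80.6%), against 34.6% of all windows, and both were in 22 (61.1%), against 6.38%. For S phase genes, 28 genes of DNA replication with 34 windows, the share with CHR letters was 5.88% and the share with a CCAAT box 67.6%. For 88 further mitosis genes with 86 windows the shares were 57.0% and 59.3%. The CHR letters started within 40 bases before the start site in 15 of the genes. Genes without a window were AURKA, BIRC5, FOXM1, TPX2, TTK and UBE2C.

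**Figure D1:**
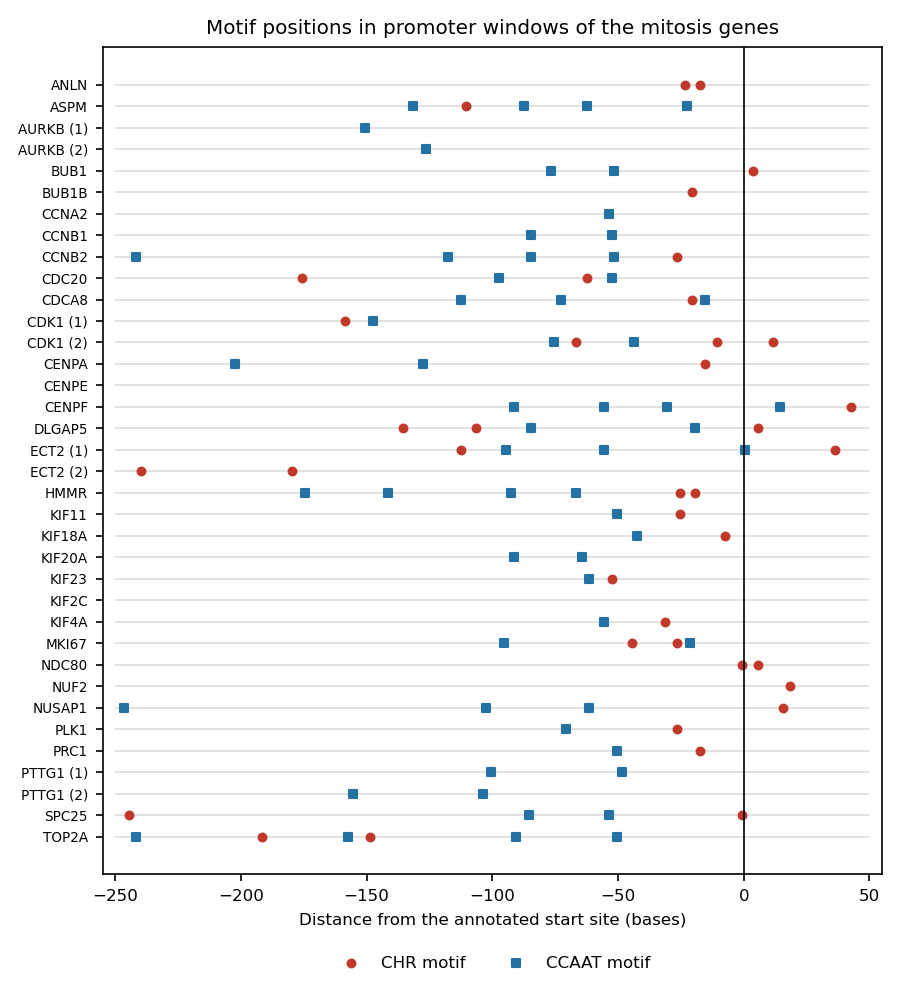
Positions of CHR letters (circles) and CCAAT boxes (squares) in the 36 promoter windows of 32 mitosis genes. The horizontal axis is the distance in bases from the annotated start site, with 1 line per window. Of overlapping matches to the same motif only the first is drawn. The 27 windows with CHR letters and the 29 with a CCAAT box can be read off, and CENPE and KIF2C have neither.

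Total estimated counts ran from 23.87 to 33.06 M per library, so even SPC25, the gene with the fewest counts among the 38, had at least 155 in each library. Nothing in the labels says whether replicate libraries stem from separate cultures; the p-values thus reflect library-to-library spread that could be technical alone. The library names put the vehicle in a set of its own, and the mitochondrially encoded share of its counts was 10.47 to 10.7%, against 5.68 to 9.59% in 26 of the 27 extract libraries. The exception was Yijin-tang 500 µg/mL replicate 3, at 10.61% beside 6.7% and 7.35% in its group. The numbers of the 38 genes that passed a test using it are given with and without it. Counts by role, counts of groups that did not overlap and counts from other gene lists are given only with it. The labelled line was checked against markers: VIM (3750 to 5590 CPM, counts per M after TMM scaling), CD44 (2180 to 3020) and SOX9 (52.6 to 92.8) were present. NES was lower, at 4.68 to 16.3 CPM. The astrocyte markers GFAP, S100B, AQP4 and ALDH1L1 were near 0, at most 0.252 CPM. Markers of endothelial and epithelial cells were at most 0.902 CPM. Of 5 leukocyte markers, PTPRC was at 4.17 to 12.9 CPM and the others at most 1.19, and the sum of the 5 was 4.38 to 5.05 at 500 µg/mL of Soshiho-tang and 12.6 to 13.4 at 20. With Yijin-tang that sum was 8.55 to 9.16 at 500 and 12 to 12.2 at 20, and with Okbyeongpung-san 6.7 to 6.92 and 10.2 to 13.3. Of 4 neuronal markers, SYT1 (19.5 to 31.2) and SNAP25 (15.6 to 30.4) were present and the others at most 0.387. The sum of the 4 was 40.2 to 42.1 at 500 of Soshiho-tang against 50.9 to 56.5 at 20, 51.1 to 52.6 against 58.7 to 60.7 with Okbyeongpung-san, and 48.6 to 52.9 against 53.9 to 56.4 with Yijin-tang. The sums of the 8 glial markers were made up mostly of VIM and CD44. They were 6540 to 6900 against 7690 to 8600, 6380 to 7540 against 7550 to 8370, and 6730 to 7680 against 7880 to 8160 in the same order. The part of these markers in the results was not tested.

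Mitosis genes fell with the highest concentration of Soshiho-tang. Between 500 and 20 µg/mL, 35 of the 38 fell and 0 rose, with a median log2 fold change of -0.365, while 14.2% of the 16872 genes tested fell, 14.6% rose and the median of all genes was 0.0073. A gene is said to rise or fall where edgeR's quasi-likelihood test gave a Benjamini-Hochberg adjusted p under 0.05 over all genes tested. The other 3 genes, UBE2C, PTTG1 and SPC25, were also below 0 but did not pass the test. In 36 of the 38 each library at 500 lay below each library at 20, which was so for 21% of all genes. In bulk RNA, fewer dividing cells and less RNA per dividing cell cannot be told apart.

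With Yijin-tang, 9 of the 38 rose between 20 and 500 µg/mL and 0 fell, where 2.7% of all genes rose and 2.94% fell. The median log2 fold change was 0.116 (0.000661 over all genes). The 9 were CCNA2, CCNB2, CDK1, AURKA, AURKB, NDC80, KIF2C, HMMR and TOP2A. In 18 of the 38 each library at 500 lay above each library at 20, against 11.1% of all genes. The count fell to 3 without Yijin-tang 20 replicate 2, to 4 without Yijin-tang 20 replicate 1, to 5 without Yijin-tang 500 replicate 2 and to 3 when only these 6 libraries were fitted. Without Yijin-tang 500 replicate 3 it was 7 and the median 0.0732.

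Mitosis genes also fell with Okbyeongpung-san. Between 500 and 20 µg/mL, 26 of the 38 fell and 0 rose, with a median log2 fold change of -0.409, where 5.1% of the 16643 genes tested fell and 5.21% rose. The 2 libraries of each group differ in batch letter. Within batch D the median log2 difference was -0.416 with 38 genes below 0, and within batch E it was -0.4085 with 37 below 0. The count was 13 without Okbyeongpung-san 20 replicate 2 and 2 when only the 4 libraries compared were fitted.

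**Figure D2:**
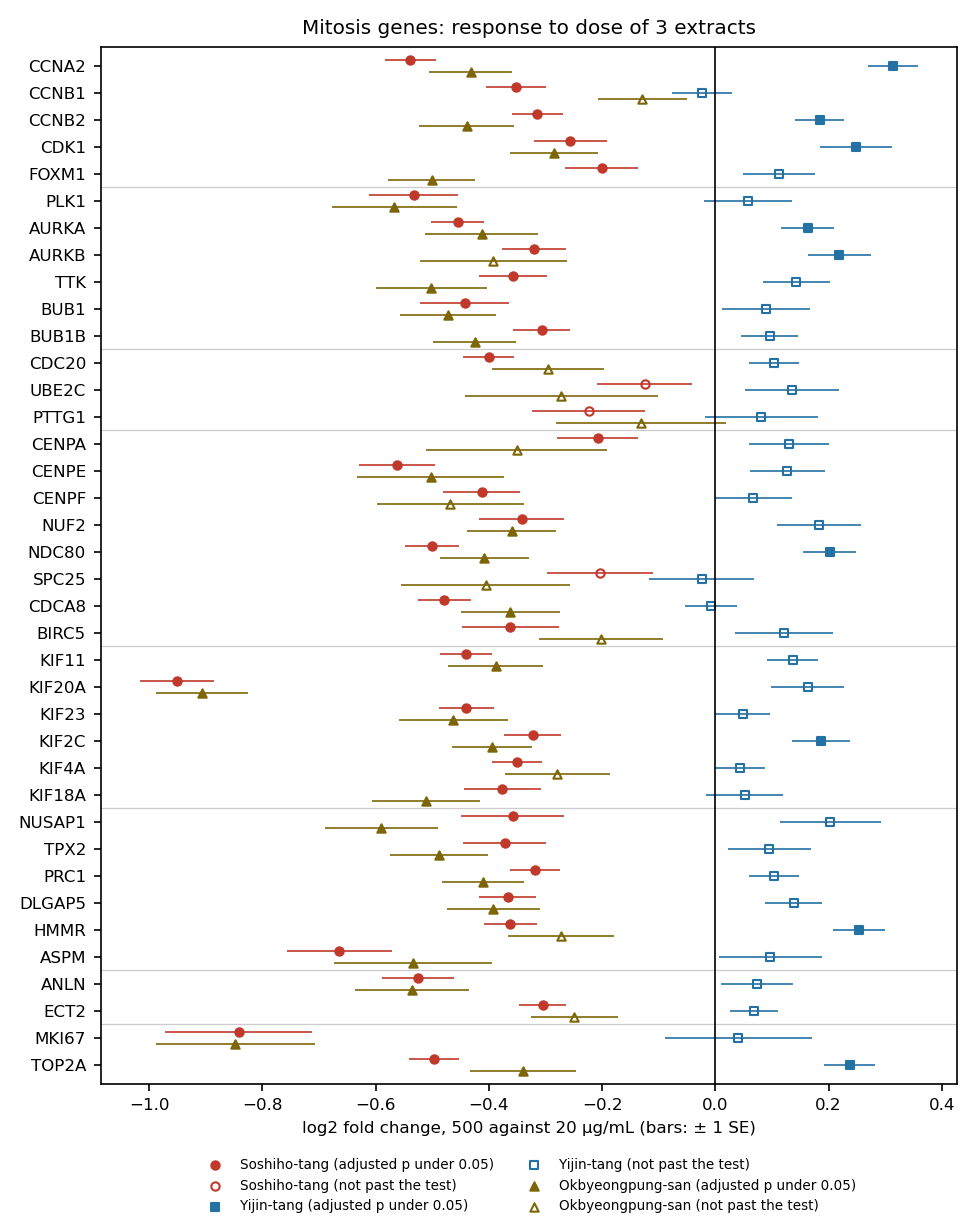
Log2 fold change of each of the 38 mitosis genes between 500 and 20 µg/mL of 3 extracts, grouped by role; bars are ± 1 SE and filled symbols have an adjusted p under 0.05. Every Soshiho-tang and Okbyeongpung-san point lies below 0, and 35 of the 38 Yijin-tang points lie above 0 (27 without Yijin-tang 500 replicate 3).

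The direction of the response was compared gene by gene. Of the 38 genes, 35 were below 0 with Soshiho-tang and above 0 with Yijin-tang, a pattern that 20% of all genes had. Without Yijin-tang 500 replicate 3 it held for 27 of the 38 and 19.4% of all genes, and PLK1, CENPF, TPX2, ANLN, MKI67 and PTTG1 were among those then below 0 with Yijin-tang. In edgeR 9 passed the test as lower with Soshiho-tang and higher with Yijin-tang, as did 0.409% of all genes; the count was 7 without that library, 4 and 3 without Yijin-tang 20 replicates 1 and 2, and 5 without Yijin-tang 500 replicate 2. CCNB1, SPC25 and CDCA8 were below 0 with both (28.6% of all genes), which became 11 genes without Yijin-tang 500 replicate 3 and 1 without Yijin-tang 20 replicate 1. With both extracts 0 of the 38 passed as lower (1.93% of all genes). The difference of the responses was tested as an interaction of extract and dose: 35 of the 38 responded more negatively to Soshiho-tang than to Yijin-tang, where 6.99% of all genes did so. The median interaction was -0.504 on the log2 scale, and without Yijin-tang 500 replicate 3 the count was 34 and the median -0.478. The 3 genes that did not pass were UBE2C (-0.26, adjusted p = 0.177), PTTG1 (-0.31, adjusted p = 0.193) and SPC25 (-0.18, adjusted p = 0.45). Across the 38 genes the log2 fold changes with Soshiho-tang and Yijin-tang had Pearson's r = -0.011 and Spearman's rho = 0.027. These are descriptions over genes that share the same libraries, and genes are not independent replicates.

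At equal concentrations, differences between Soshiho-tang and Yijin-tang passed the test at 500 µg/mL. There, 38 of the 38 genes were lower with Soshiho-tang than with Yijin-tang, where 12.8% of all genes were lower, and the median log2 difference was -0.492. In all 38 the 3 Soshiho-tang libraries lay below the 3 Yijin-tang libraries, which held for 19.5% of all genes. Without Yijin-tang 500 replicate 3, 37 were lower with a median of -0.454. At 100 µg/mL edgeR called 0 of the 38 (0.753% of all genes in either direction), with 6 at an unadjusted p under 0.05 and 0 called by DESeq2. At 20 µg/mL it called 0 (0.13% of all genes), with 1 at an unadjusted p under 0.05 and 0 called by DESeq2. The largest differences at these concentrations were those of PTTG1, -0.24 at 100 and -0.17 at 20 on the log2 scale. All Soshiho-tang libraries lay below all Yijin-tang libraries in 7 of the 38 at 100 and 0 at 20 (7.19% and 6.84% of all genes). They all lay above in 0 at 100 and 5 at 20 (7.46% and 7.2% of all genes).

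**Figure D3:**
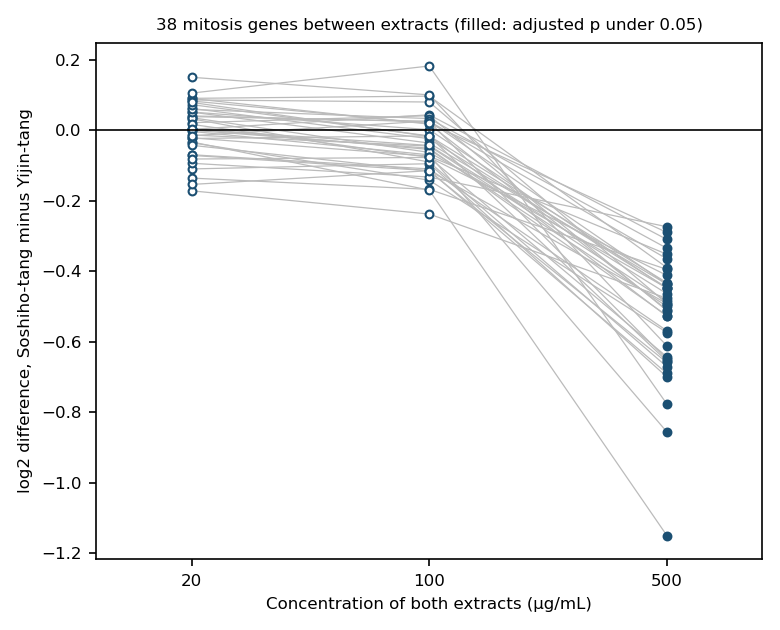
Log2 difference of each mitosis gene between Soshiho-tang and Yijin-tang at 20, 100 and 500 µg/mL, with a line per gene; filled points have an adjusted p under 0.05. Differences at 20 and 100 lie within -0.24 and 0.18 with no filled point, and all 38 points at 500 are filled and below 0.

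The steps between neighbouring concentrations were added as comparisons with the data in view. From 100 to 500 of Soshiho-tang 36 of the 38 fell (12.8% of all genes fell), and UBE2C and SPC25 did not pass. From 20 to 100 edgeR called 0 (0.0711% of all genes), with 1 at an unadjusted p under 0.05 and 0 by DESeq2, and log2 differences ran from -0.07 (CCNB1) to 0.13 (CCNB2). From 100 to 500 of Okbyeongpung-san 29 fell (4.43% of all genes fell), or 5 without Okbyeongpung-san 100 replicate 2, 16 without Okbyeongpung-san 100 replicate 3 and 2 with only the 4 libraries compared. From 20 to 100 of it 0 were called by edgeR (0% of all genes), with 0 at an unadjusted p under 0.05 and 0 by DESeq2. With Yijin-tang neither step alone passed in edgeR. From 20 to 100, 0 were called (0.00593% of all genes), with 7 at an unadjusted p under 0.05 and 0 by DESeq2. From 100 to 500, 0 were called (1.77% of all genes), with 5 at an unadjusted p under 0.05 and 2 by DESeq2, and 0 in edgeR without Yijin-tang 500 replicate 3.

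Among the cyclins, CDK1 and the transcription factor, all 5 fell with Soshiho-tang (14.2% of all genes fell). Of these 5, 3 rose with Yijin-tang (2.7% of all genes rose) and 4 fell with Okbyeongpung-san (5.1% fell). CCNA2 (ENSG00000145386, chr4:121816444-121823933, minus strand; GENCODE v29 on GRCh38) encodes cyclin A2, which drives S phase and entry into mitosis. Its level was 66.1, 60.1 and 64.4 CPM at 500 µg/mL of Soshiho-tang and 90.9, 91.9 and 94.2 at 20. The Yijin-tang levels were 114, 112 and 119.8 CPM at 500 and 90.6, 93.2 and 93.6 at 20. The groups did not overlap in either extract and lay on opposite sides of the level at 20. The log2 fold change was -0.54 ± 0.045 (SE, adjusted p = 6.16e-09) with Soshiho-tang and 0.31 ± 0.044 (adjusted p = 0.000121) with Yijin-tang, and the interaction was -0.85 ± 0.063 (adjusted p = 4.26e-09). Okbyeongpung-san gave 67.4 and 64.9 CPM at 500 and 85.2 and 92.6 at 20, again without overlap (log2 fold change -0.43, adjusted p = 0.00549).

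CDK1, the catalytic partner of the mitotic cyclins, fell by 0.26 on the log2 scale with Soshiho-tang and rose by 0.25 with Yijin-tang, and CCNB2, a B-type cyclin, fell by 0.32 and rose by 0.18. CCNB1, the main mitotic cyclin, fell by 0.35 with Soshiho-tang and had log2 fold changes of -0.02 with Yijin-tang and -0.13 with Okbyeongpung-san, neither of which passed the test. FOXM1 (ENSG00000111206, chr12:2857681-2877155, minus strand) encodes a transcription factor of late cell cycle genes. Its level was 174, 163 and 167 CPM at 500 µg/mL of Soshiho-tang and 190.5, 188 and 201 at 20. Yijin-tang gave 190.5, 202 and 233 at 500 and 194, 200.2 and 183 at 20, and with Okbyeongpung-san 138 and 149.8 at 500 and 205.63 and 200.01 at 20. The Soshiho-tang and Okbyeongpung-san groups did not overlap, and the Yijin-tang groups did. Its log2 fold change was -0.20 ± 0.064 with Soshiho-tang (adjusted p = 0.0226) and -0.50 ± 0.077 with Okbyeongpung-san (adjusted p = 0.00341). Its interaction between Soshiho-tang and Yijin-tang, -0.31 ± 0.091 (adjusted p = 0.0237), lost the call without Soshiho-tang 500 replicate 2 or 3, Soshiho-tang 20 replicate 3, Yijin-tang 500 replicate 3 or Yijin-tang 20 replicate 3. Its fall with Soshiho-tang lost the call without any of these 3 Soshiho-tang libraries.

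All 6 mitotic kinases fell with Soshiho-tang (14.2% of all genes), 5 fell with Okbyeongpung-san (5.1%) and 2 rose with Yijin-tang (2.7%). PLK1 (ENSG00000166851, chr16:23677656-23690367, plus strand), the Polo kinase of spindle assembly and mitotic exit, was at 106, 99.4 and 95.3 CPM at 500 µg/mL of Soshiho-tang and 135, 137 and 162 at 20. Yijin-tang libraries had 148, 158 and 183 CPM at 500 and 149, 158 and 161 at 20. The Soshiho-tang groups did not overlap and the Yijin-tang groups did. Its log2 fold change was -0.53 ± 0.078 with Soshiho-tang (adjusted p = 1.72e-05) and 0.06 ± 0.077 with Yijin-tang (adjusted p = 0.759), and the interaction was -0.59 ± 0.11 (adjusted p = 0.000605).

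AURKA, which matures the spindle poles, fell by 0.46 with Soshiho-tang and rose by 0.16 with Yijin-tang on the log2 scale. AURKB, the catalytic subunit of the chromosomal passenger complex, fell by 0.32 and rose by 0.22, and with Okbyeongpung-san it was at -0.39 without passing (adjusted p = 0.0831). The spindle checkpoint kinase TTK and the checkpoint proteins BUB1 and BUB1B fell by 0.36, 0.44 and 0.31 with Soshiho-tang. The same 3 fell by 0.50, 0.47 and 0.42 with Okbyeongpung-san, and their Yijin-tang values, 0.14, 0.09 and 0.10, did not pass.

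Of the 3 genes of anaphase onset, CDC20 fell with Soshiho-tang (14.2% of all genes fell). With Yijin-tang and Okbyeongpung-san 0 passed (5.64% and 10.3% of all genes in either direction). CDC20 (ENSG00000117399, chr1:43358955-43363203, plus strand), the activator of the anaphase-promoting complex, was at 173, 161 and 162 CPM at 500 µg/mL of Soshiho-tang and 219.9, 217 and 218 at 20. Yijin-tang gave 240.3, 244 and 232 at 500 and 212, 223 and 229.9 at 20. Neither pair of groups overlapped. The log2 fold change with Soshiho-tang was -0.40 ± 0.045 (adjusted p = 4.16e-07), that with Yijin-tang 0.10 ± 0.044 (adjusted p = 0.196), and the interaction -0.50 ± 0.063 (adjusted p = 5.9e-06).

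UBE2C (ENSG00000175063, chr20:45812576-45816957, plus strand), a ubiquitin-conjugating enzyme of that complex, was at 69.9, 64.6 and 61.8 CPM at 500 of Soshiho-tang and 70.2, 62.5 and 81.7 at 20, so the groups overlapped. Its log2 fold change of -0.12 ± 0.084 did not pass (adjusted p = 0.3). PTTG1 (ENSG00000164611, chr5:160421822-160428744, plus strand) encodes securin, the inhibitor of the protease that splits sister chromatids. It was at 139, 129.7 and 122 CPM at 500 and 154, 129 and 175 at 20, with overlap and a log2 fold change of -0.22 ± 0.1 (adjusted p = 0.11). With Okbyeongpung-san PTTG1 differed in sign between the batches, -0.35 in D and 0.12 in E on the log2 scale. At 500 µg/mL, however, UBE2C and PTTG1 were both lower with Soshiho-tang than with Yijin-tang, with log2 differences of -0.40 (adjusted p = 0.0011) and -0.48 (adjusted p = 0.00117).

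Of 8 centromere, kinetochore and chromosomal passenger genes, 7 fell with Soshiho-tang (14.2% of all genes). Of these 8, 4 fell with Okbyeongpung-san (5.1% of all genes) and 1 rose with Yijin-tang (2.7%). CENPF (ENSG00000117724, chr1:214603195-214664588, plus strand), a large outer kinetochore protein that accumulates in G2, was at 258, 234 and 247 CPM at 500 µg/mL of Soshiho-tang and 319, 328 and 337 at 20. Under Yijin-tang it stood at 305, 308 and 355 at 500 and 295, 324 and 304 at 20. The Soshiho-tang groups lay apart and the Yijin-tang groups overlapped, and the interaction was -0.48 ± 0.096 on the log2 scale (adjusted p = 0.00121). With Okbyeongpung-san it was 297 and 229 CPM at 500 and 403 and 323 at 20. That log2 fold change, -0.47, missed the threshold (adjusted p = 0.0508) and passed it with the replicate number as a block (adjusted p = 0.025). This block also ties vehicle libraries, all of batch E, to Okbyeongpung-san libraries by number alone.

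The kinetochore motor CENPE fell by 0.56 with Soshiho-tang and by 0.50 with Okbyeongpung-san on the log2 scale. Within the microtubule-binding Ndc80 complex, NDC80 fell by 0.50 and NUF2 by 0.34 with Soshiho-tang, and NDC80 rose by 0.20 with Yijin-tang. SPC25 (ENSG00000152253, chr2:168834132-168913371, minus strand), a subunit of the same complex, was at 8.13, 7.91 and 8.08 CPM at 500 of Soshiho-tang and 8.34, 8.63 and 10.9 at 20. The groups did not overlap, yet the log2 fold change of -0.20 ± 0.094 did not pass (adjusted p = 0.115). Its difference from Yijin-tang at 500, -0.27 (adjusted p = 0.0357), lost the call in DESeq2, without the filter, with 27 libraries fitted, and without any single library at 500 of either extract except Yijin-tang 500 replicate 1. CDCA8 (borealin) and BIRC5 (survivin), subunits of the passenger complex, fell by 0.48 and 0.36 with Soshiho-tang. CENPA, the centromeric histone, fell by 0.21.

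All 6 spindle motors fell with Soshiho-tang (14.2% of all genes), 5 fell with Okbyeongpung-san (5.1%) and 1 rose with Yijin-tang (2.7%). KIF20A (ENSG00000112984, chr5:138178719-138187715, plus strand), a kinesin of the central spindle needed for cytokinesis, changed most of the 38 in the Soshiho-tang, Okbyeongpung-san and interaction comparisons. It was at 73.2, 72.3 and 73.6 CPM at 500 µg/mL of Soshiho-tang, 143, 135 and 145 at 100, and 137, 137 and 149.8 at 20. With Yijin-tang it was 148, 156 and 182 at 500 and 140.3, 149 and 144 at 20, and with Okbyeongpung-san 77.2 and 87.3 at 500 and 153 and 154 at 20. Both extracts that lowered it left it far below the vehicle level of 137, 147 and 142 CPM, without overlap, while the Yijin-tang groups overlapped. The log2 fold change was -0.95 ± 0.066 with Soshiho-tang (0.517 times, adjusted p = 3.03e-10) and -0.91 ± 0.081 with Okbyeongpung-san (0.533 times, adjusted p = 0.000187). The interaction of Soshiho-tang and Yijin-tang was -1.11 ± 0.092 (adjusted p = 1.99e-08).

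The other motors moved less. With Soshiho-tang the log2 fold changes were -0.44 for KIF11, which pushes the spindle poles apart, and -0.44 for KIF23, the motor of centralspindlin. They were -0.32 for the microtubule depolymerase KIF2C, -0.35 for the chromosome-bound KIF4A and -0.38 for KIF18A, which limits chromosome movement at the spindle centre. KIF2C was the motor that rose with Yijin-tang (0.19, adjusted p = 0.0339), and KIF4A the motor that did not pass with Okbyeongpung-san (-0.28, adjusted p = 0.0864).

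All 6 spindle assembly and microtubule proteins fell with Soshiho-tang (14.2% of all genes), 5 fell with Okbyeongpung-san (5.1%) and HMMR rose with Yijin-tang (2.7%). TPX2 (ENSG00000088325, chr20:31739271-31801805, plus strand), which activates Aurora A at the spindle, was at 246, 227 and 232 CPM at 500 µg/mL of Soshiho-tang and 289.9, 295 and 327 at 20. Yijin-tang gave 294, 299.8 and 379 at 500 and 294, 307 and 308 at 20, and the high value is that of replicate 3. The Soshiho-tang groups lay apart and the Yijin-tang groups overlapped, with an interaction of -0.47 ± 0.1 (adjusted p = 0.0031).

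ASPM (ENSG00000066279, chr1:197084128-197146694, minus strand), a spindle pole protein, was at 109, 99.4 and 105 CPM at 500 µg/mL of Soshiho-tang and 165, 165 and 167 at 20. With Yijin-tang it was 154, 146 and 179 at 500 and 146, 162 and 139.5 at 20. Of these the Soshiho-tang groups lay apart, and the interaction was -0.76 ± 0.13 (adjusted p = 0.000246). With Okbyeongpung-san it was 130.2 and 114 CPM at 500 and 202 and 150.3 at 20, without overlap. That log2 fold change, -0.53 (adjusted p = 0.0372), lost the call without Okbyeongpung-san 20 replicate 2, 500 replicate 2 or 500 replicate 3. HMMR, a hyaluronan receptor that also binds spindle microtubules, fell by 0.36 with Soshiho-tang and rose by 0.25 with Yijin-tang on the log2 scale. NUSAP1 and DLGAP5, which stabilise spindle microtubules, fell by 0.36 and 0.37 with Soshiho-tang, and PRC1, which bundles the central spindle, by 0.32.

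Both cytokinesis genes fell with Soshiho-tang (14.2% of all genes fell), and neither passed with Yijin-tang (5.64% of all genes in either direction). ANLN (ENSG00000011426, chr7:36389806-36453791, plus strand), the scaffold of the contractile ring, was at 411, 382 and 397 CPM at 500 µg/mL of Soshiho-tang and 561, 558 and 593 at 20. Under Yijin-tang it stood at 523, 542 and 630.0 at 500 and 524, 546 and 537 at 20, and with Okbyeongpung-san 419 and 377 at 500 and 603 and 548 at 20. Only the Yijin-tang groups overlapped. The log2 fold change was -0.53 ± 0.063 with Soshiho-tang (adjusted p = 1.33e-06) and the interaction -0.60 ± 0.09 (adjusted p = 5.64e-05). ECT2, the exchange factor that switches on RhoA at the ring, fell by 0.30 with Soshiho-tang and was at -0.25 with Okbyeongpung-san (adjusted p = 0.0691).

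Both chromosome proteins fell with Soshiho-tang (14.2% of all genes) and with Okbyeongpung-san (5.1%), and TOP2A rose with Yijin-tang (2.7%). MKI67 (ENSG00000148773, chr10:128096659-128126385, minus strand) encodes Ki-67, which coats mitotic chromosomes and marks dividing cells in pathology. It was at 205, 174 and 183 CPM at 500 µg/mL of Soshiho-tang and 326, 322 and 358 at 20. Yijin-tang gave 285, 278 and 399.6 at 500 and 304, 355 and 274 at 20, and with Okbyeongpung-san 228 and 192 at 500 and 431 and 324 at 20. Its spread within groups was wide, yet only the Yijin-tang groups overlapped. The log2 fold change was -0.84 ± 0.13 with Soshiho-tang (adjusted p = 4.27e-05) and -0.85 ± 0.14 with Okbyeongpung-san (adjusted p = 0.00397). With Yijin-tang it was 0.04 ± 0.13 (adjusted p = 0.919), and -0.15 without Yijin-tang 500 replicate 3.

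TOP2A (ENSG00000131747, chr17:40388516-40417950, minus strand), the topoisomerase that untangles replicated chromosomes, was at 379, 359 and 383 CPM at 500 µg/mL of Soshiho-tang and 539, 532 and 510.3 at 20. The Yijin-tang levels were 590.4, 587 and 589 at 500 and 491, 495 and 511 at 20. The groups lay apart in both extracts, on opposite sides of the level at 20. The log2 fold change was -0.50 ± 0.045 with Soshiho-tang (adjusted p = 2.14e-08) and 0.24 ± 0.045 with Yijin-tang (adjusted p = 0.00235), and the interaction -0.73 ± 0.064 (adjusted p = 4.4e-08). With Okbyeongpung-san it was 442 and 372 CPM at 500 and 530.1 and 497 at 20, again apart. That log2 fold change, -0.34 (adjusted p = 0.0458), lost the call without Okbyeongpung-san 20 replicate 2 or 3 or 500 replicate 3.

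**Figure D4:**
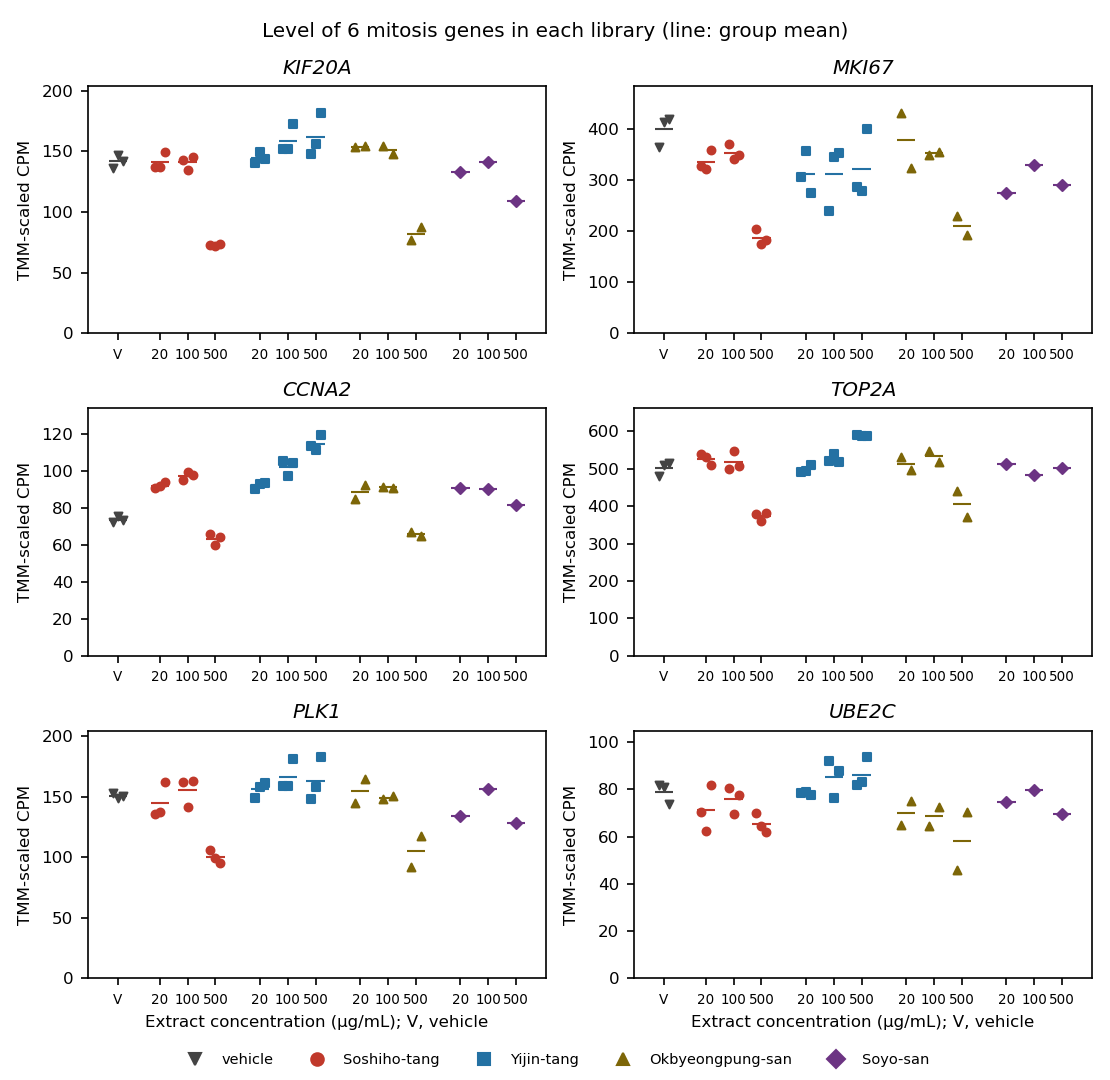
Levels (TMM-scaled CPM, vertical axes from 0) of 6 mitosis genes in each of the 30 libraries by extract and concentration in µg/mL; each point is 1 library, each line a group mean, and V is the vehicle. For KIF20A, MKI67, CCNA2, TOP2A and PLK1 the 3 Soshiho-tang libraries at 500 lie below those at 20, and UBE2C overlaps.

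The responses to Soshiho-tang and Okbyeongpung-san were also compared, which, like the comparison of Okbyeongpung-san with Yijin-tang, was added with the data in view. With both of the former, 26 of the 38 passed the test as lower, as did 3.46% of the 16496 genes tested in both fits; without Okbyeongpung-san 20 replicate 2 the count was 13, and 2 when each fit held only the libraries compared. The difference of their responses passed in 0 of the 38 in edgeR (7.43% of all genes in either direction), with 2 at an unadjusted p under 0.05 and 0 by DESeq2. The 95% intervals of the difference reached from -0.553 to 0.483 on the log2 scale, with a median distance of 0.217 from centre to end. With the batch letter as a block within Okbyeongpung-san the count was also 0, with 3 at an unadjusted p under 0.05 and intervals from -0.533 to 0.469. In both fits these are the lowest and the highest bound over the 38 genes, not the interval of any single gene. The 2 genes at an unadjusted p under 0.05 without the block were FOXM1 and CCNB1. FOXM1 differed by -0.294 (95% interval -0.51 to -0.0787) and CCNB1 by 0.23 (0.0445 to 0.415). Where a gene was not called, any difference within its own interval remains possible. Across the 38 genes the fold changes with both extracts had Pearson's r = 0.72, Spearman's rho = 0.53, again a description over genes that share libraries. The interaction of Okbyeongpung-san with Yijin-tang was negative and passed in 32 of the 38, where 5.11% of all genes passed as lower, and in 32 without Yijin-tang 500 replicate 3. Its largest value was that of KIF20A (-1.07 ± 0.11, adjusted p = 3.06e-07).

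Soyo-san, with 1 library at each concentration, allows no test. Between 500 and 20 µg/mL the median log2 ratio (of CPM + 1) of the 38 was -0.1, against 0.00197 over all genes, with 30 genes below 0 and 8 above. KIF20A went from 133 CPM at 20 µg/mL to 109 at 500, and AURKA from 126 to 104. MKI67, at 274 CPM and 289, was the highest ratio (0.08).

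**Figure D5:**
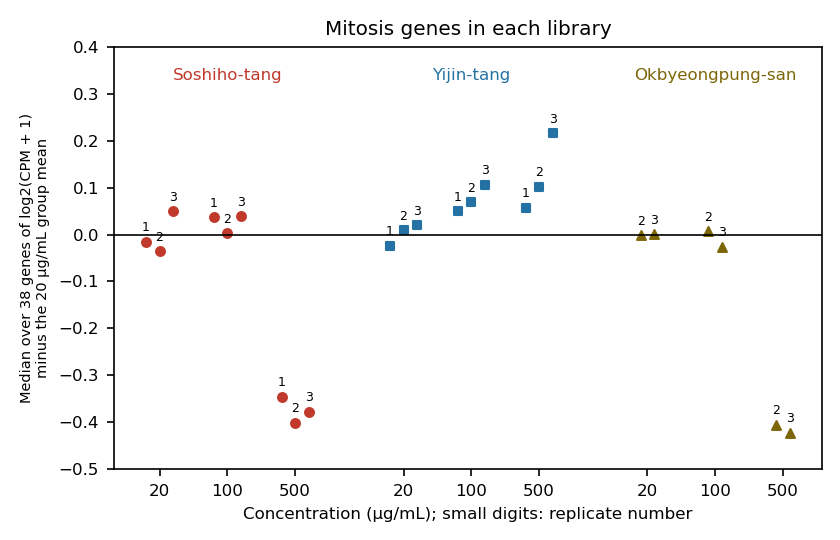
Median over the 38 mitosis genes of log2(CPM + 1) minus the mean of the 20 µg/mL group of the same extract, 1 point per library with its replicate number. The 500 µg/mL libraries lie at -0.346 to -0.401 for Soshiho-tang and at -0.405 and -0.422 for Okbyeongpung-san, and at 0.0569, 0.102 and 0.216 for Yijin-tang.

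The same was read library by library, as in the plot of medians. Each of the 3 Soshiho-tang libraries at 500 µg/mL had all 38 genes below the mean at 20, and the Okbyeongpung-san libraries had 38 and 37. The Yijin-tang libraries at 500 had 25, 32 and 35 genes above it, the last being replicate 3.

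Against the vehicle the picture depended on the concentration, and here extract and library set cannot be told apart. At 500 µg/mL of Soshiho-tang 30 of the 38 were lower (21.1% of all genes were lower), with MKI67 (-1.09) and KIF20A (-0.96) at the far end on the log2 scale. At 500 of Yijin-tang 25 were higher (16% of all genes were higher), led by CCNA2 (0.64, adjusted p = 3.71e-09) and PTTG1 (0.58, adjusted p = 0.000208). At 500 of Okbyeongpung-san 17 were lower (11.4% of all genes were lower), or 8 without vehicle replicate 2 and 10 without vehicle replicate 3. With all 27 libraries in 1 fit the Okbyeongpung-san count was 27. Library totals without scaling gave 19 for Soshiho-tang and 9 for Okbyeongpung-san. Without Yijin-tang 500 replicate 3 the Yijin-tang count was 21.

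Lower concentrations stood above the vehicle in part of the genes. At 100 and 20 µg/mL of Soshiho-tang 18 and 14 were higher (10.8% and 11.3% of all genes), and at 100 and 20 of Yijin-tang 20 and 15 (13.1% and 10.6%). Without replicate 3 of the 20 µg/mL group the counts at 20 were 8 and 8, and without scaling that of Soshiho-tang was 23. At 100 of Okbyeongpung-san CCNA2, TTK and NUF2 were higher (2.04% of all genes), and at 20 edgeR called 0 (2.24% in either direction), with 16 at an unadjusted p under 0.05. CCNA2 was the clearest case: the vehicle had 72.3, 75.5 and 73.7 CPM, and every extract library at 20 µg/mL had at least 85.2.

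The response was also set beside the promoter letters, with no test. The 25 genes with the letters had a median log2 fold change of -0.38 with Soshiho-tang, 0.1 with Yijin-tang and -0.41 with Okbyeongpung-san. The 7 with a window but no match to these letters, KIF20A and CCNA2 among them, had -0.35, 0.16 and -0.4. Other forms of the CHR were not searched for, so some of the 7 may hold one.

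Other genes of the pathway were read from fixed lists, from 20 to 500 µg/mL. Of all genes, 14.6% rose and 14.2% fell with Soshiho-tang, and 2.7% rose and 2.94% fell with Yijin-tang. With Okbyeongpung-san 5.21% rose and 5.1% fell. Of 88 further mitosis genes, 49 fell and 3 rose with Soshiho-tang, with a median of -0.183 on the log2 scale. FBXO5, an inhibitor of the anaphase-promoting complex, fell by 0.79, CDCA3 by 0.69 and the spindle protein FAM83D by 0.68, and the risers were PKMYT1, a kinase that inhibits CDK1 (0.24), DSN1 and CENPH. With Yijin-tang 15 rose, HJURP, the chaperone of the centromeric histone, most (0.31), and 1 fell (SKA2, -0.29). With Okbyeongpung-san 32 fell and 0 rose, with MYBL2, the B-MYB partner of MuvB, at -0.73 and separase (ESPL1) at -0.57. Of 28 S phase genes, 10 fell and 2 rose with Soshiho-tang, among them RRM2 (-0.48) and TYMS (-0.46), enzymes of nucleotide supply. Of these 28, 4 rose with Yijin-tang and 8 fell with Okbyeongpung-san.

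Among 15 inhibitors and stress genes of the cell cycle, 4 rose and 5 fell with Soshiho-tang (14.6% of all genes rose and 14.2% fell). SESN2, a stress-induced sestrin, rose from a mean of 22.8 to 78.5 CPM (log2 fold change 1.78 ± 0.054, adjusted p = 6.1e-16). GADD45A, a stress gene that can arrest cells before mitosis, rose by 0.82 and CDKN1A (p21) by 0.59. Those that fell include CDKN2C (p18) by 0.84, CDKN1B by 0.35 and CDKN3 by 0.26. With Okbyeongpung-san CDKN1A rose by 0.89, GADD45A by 0.87 and SESN2 by 0.67, and CDKN2C fell by 0.61 and CDKN3 by 0.31. With Yijin-tang CDKN1A (0.18), GADD45A (0.12) and SESN2 (0.12) did not pass, BTG2 rose by 0.85 from 0.68 to 1.23 CPM and CDKN2B fell by 0.26. Of 15 measured G1 and S phase regulators, 2 rose and 6 fell with Soshiho-tang, and the share that rose was near that of all genes (14.6%). The 2 risers were E2F7, an E2F repressor (0.81), and CDK4 (0.3). Those that fell include E2F8, E2F2 and CDK6, by 0.74, 0.78 and 0.73.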

How the data were processed

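RNA from 30 SW1783 libraries was sequenced as 100 bp paired-end reads from a directional MGI kit, per the labels' protocols. The deposited values are estimated counts per gene; FastQC 0.11.9, Trim Galore 0.6.5, STAR 2.7.3a and RSEM 1.3.3 with hg38 are listed in the submitters' processing notes. The annotation release and strand setting are not given in the sources used here. Between 9.24 and 10.73% of values per library were not whole, and counts were rounded. The mitosis genes and the other gene lists were chosen with earlier results of these data known.

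Libraries were grouped by the labels. edgeR 4.0.16 (R 4.3.3, limma 3.58.1) with TMM scaling, filterByExpr (minimum count 10, total 15) and quasi-likelihood tests was fitted to 21 libraries (vehicle, Soshiho-tang, Yijin-tang; 16872 genes), to 9 (vehicle, Okbyeongpung-san; 16643 genes), and to 27 for interactions with Okbyeongpung-san (17396 genes). P-values were Benjamini-Hochberg adjusted over all genes of a fit, with a threshold of 0.05. Errors are standard errors from the test statistic. Levels are CPM after TMM over all 30 libraries. The tests were also run on simulated counts with planted changes, a fixed spread and no batch difference. The planted changes were larger than those of the mitosis genes with Yijin-tang, so that run says nothing on changes so small. Soyo-san, with 1 library per group, was compared as log2(CPM + 1) with no test.

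Genes described in full were those with the highest mean CPM in each role, the 4 largest and the 4 smallest interactions of Soshiho-tang and Yijin-tang; the others are given by counts and single values. From the other lists the genes with the largest changes are named. The Okbyeongpung-san replicate number goes with the batch letter in the titles. Its same-numbered libraries deviated together (correlations from 0.17 to 0.53). With 2 libraries per group the deviations from the mean mirror each other, so both numbers give the same correlations. Pairing by number cannot be told apart from the batch letter here. Gene coordinates and names are from GENCODE v29 on GRCh38 and promoters from RefSeq. Alternatives were RLE scaling, no scaling, mitochondrially encoded genes left out, no filter, DESeq2 1.42.0, fewer or more libraries in the fit, a replicate block, a block within Okbyeongpung-san alone (added with the data in view) and each replicate left out.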

Additional observations from a re-analysis of the deposited data

Results flagged for a closer look

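The response from 20 to 500 µg/mL differed between extracts by the test of the difference itself (edgeR interaction term, on the log2 scale). Between Soshiho-tang and Yijin-tang it differed in 35 of the 38 mitosis genes, all lower, where 6.99% of all genes passed as lower. Among the genes described in full the interaction was -1.11 for KIF20A, -0.882 for MKI67, -0.853 for CCNA2, -0.761 for ASPM and -0.734 for TOP2A. It was -0.599 for ANLN, -0.591 for PLK1, -0.504 for CDC20, -0.48 for CENPF, -0.467 for TPX2 and -0.313 for FOXM1.

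Between Okbyeongpung-san and Yijin-tang, added with the data in view, the response differed in 32 of the 38, where 5.11% of all genes passed as lower. The interaction was -1.07 for KIF20A, -0.886 for MKI67, -0.743 for CCNA2, -0.628 for ASPM and -0.622 for PLK1. It was -0.609 for FOXM1, -0.607 for ANLN, -0.58 for TPX2, -0.574 for TOP2A, -0.532 for CENPF and -0.396 for CDC20. The 2 extracts come from different library sets, and each response was taken within its own set. A response to dose that differs between sets cannot be told apart here from one that differs between extracts.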

How the results depend on the processing

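Counts below are of the 38 mitosis genes. Under every alternative run, 33 to 35 fell with Soshiho-tang from 20 to 500 µg/mL, 33 to 37 had a negative interaction of Soshiho-tang with Yijin-tang, and 37 to 38 were lower with Soshiho-tang at 500. The rise with Yijin-tang was less stable: 3 with only the 6 libraries compared, and 3 to 7 when single replicates were left out. For Okbyeongpung-san 500 against 20 the count was 2 with only the libraries compared and 13 to 23 with replicates left out; against 100 it was 2, and 5 to 20. Okbyeongpung-san 500 against vehicle gave 9 without scaling, 27 with 27 libraries fitted and 8 to 14 with replicates left out. Without scaling, Soshiho-tang against vehicle gave 19 at 500 and 23 at 20, Yijin-tang 500 against 100 gave 1 and Okbyeongpung-san minus Soshiho-tang gave 1. DESeq2 gave 2 for Yijin-tang 500 against 100, and no filter gave 1 for Soshiho-tang against Yijin-tang at 100. With replicates left out, Soshiho-tang and Yijin-tang at 20 against vehicle gave 8 to 14 each. Genes below 0 with both Soshiho-tang and Yijin-tang numbered 0 without scaling and 1 to 11 with replicates left out. Genes called lower with Soshiho-tang and higher with Yijin-tang numbered 3 with only the libraries compared and 3 to 9 with replicates left out. Those called lower with both Soshiho-tang and Okbyeongpung-san numbered 2 and 13 to 26; alternatives for these joint counts were added with the data in view. The fits of only the compared libraries have fewer samples. The causes of these differences were not tested.

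Of the values for single genes, 1495 kept direction and call, 62 lost the call, 36 gained it and 17 changed sign. Without scaling, SPC25 was 0.0155 for Yijin-tang 500 against 20 and 0.0351 for Soshiho-tang 500 against vehicle, and FOXM1 was 0.0346 for Yijin-tang 500 against vehicle. With replicates left out, Yijin-tang 500 against 20 ranged from -0.0652 to 0.0263 for SPC25, -0.0306 to 0.123 for PLK1, -0.00574 to 0.106 for CENPF and -0.0298 to 0.16 for TPX2. It ranged from -0.0102 to 0.126 for ANLN, -0.146 to 0.146 for MKI67 and -0.0246 to 0.172 for PTTG1; each lowest value came without Yijin-tang 500 replicate 3. Against vehicle, Yijin-tang 500 ranged from -0.128 to 0.0181 for FOXM1, -0.0107 to 0.101 for CENPF and -0.00816 to 0.139 for ASPM. Okbyeongpung-san 500 against 20 ranged from -0.61 to 0.00305 for UBE2C and from -0.313 to 0.0795 for PTTG1. Single genes were not recomputed for the comparisons at 100 and 20 or for those added after seeing the data.

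With the replicate number as a block the counts were 35 for Soshiho-tang, 9 for Yijin-tang and 26 for Okbyeongpung-san, 500 against 20, and 35 for the Soshiho-tang and Yijin-tang interaction. With the batch letter as a replicate block within Okbyeongpung-san alone, its interaction with Yijin-tang had 33 and that with Soshiho-tang 0. Soshiho-tang and Yijin-tang share only a number: the median correlation of 45 same-numbered pairs was -0.028. Besides CENPF, the replicate number as a block changed the call of ASPM for Okbyeongpung-san 500 against vehicle (-0.382, adjusted p = 0.0361). In that comparison the block ties the vehicle to Okbyeongpung-san libraries by number alone, as all vehicle libraries are in batch E.

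Over all genes, leaving out scaling moved the median for Soshiho-tang 500 against vehicle from 0.00555 to 0.12 and the calls from 3851 higher and 3556 lower to 5733 and 2336. For Soshiho-tang 500 against 20 the calls went from 2464 and 2404 to 3166 and 1823, and for Yijin-tang from 455 and 496 to 723 and 328. Calls for Okbyeongpung-san 500 against 20 were 1716, and 2604 without a filter, 3082 with 27 libraries and 523 with only those compared; for Yijin-tang they were 951 and 308 with only those compared.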
